A study of Mus musculus with 3 samples.

Results

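The expression of 10 genes of niacin sensing and NAD metabolism, *Hcar2*, *Naprt*, *Nampt*, *Nmnat1*, *Nmnat3*, *Nadsyn1*, *Cd38*, *Bst1*, *Parp1* and *Sirt1*, was examined in single cells from mouse glioblastoma (GBM). They were taken by symbol from the 31053 genes of the count files, and all 10 were listed there. Values are UMI counts (unique molecular identifiers, 1 per captured transcript) in 3 libraries, 1 from vehicle-treated mice (vehicle replicate 2) and 2 from niacin-treated mice (niacin replicates 1 and 2). All mice were wild-type C57BL/6 females aged 6 to 8 weeks, and all carried a brain tumor-initiating cell line, derived from mice with *Trp53* and *Nf1* defects, in the striatum. Niacin was given intraperitoneally at 100 mg/kg each day from day 7 after implantation, controls received saline, and tissue within 2 mm of the injection site was collected at 4 weeks, with the brains of several mice pooled in each library. Each group was therefore a pool and not a single animal, and the vehicle group had no second library here. Whether the 2 niacin pools were processed on separate days is not given in the sources used here.

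Niacin (nicotinic acid) acts on cells in 2 ways. It binds HCAR2, a Gi-coupled receptor of adipocytes and myeloid cells that also senses β-hydroxybutyrate. It is also a precursor of NAD, through the Preiss-Handler route, in which NAPRT converts nicotinic acid to its mononucleotide, NMNAT enzymes adenylate it and NADSYN1 amidates the product to NAD. NAMPT starts the parallel salvage route from nicotinamide, which returns the nicotinamide released by NAD-consuming enzymes such as the ectoenzymes CD38 and BST1, the DNA damage sensor PARP1 and the deacetylase SIRT1.

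Cells were placed in classes by the number of different lineage markers with a UMI, with 8 markers for each class and at least 2 needed, and a class name stands for cells that resemble that type by these markers. Of 6947 barcodes, 924 sequences occurred in more than 1 library, and 452 in all 3. The deepest copy of a shared barcode held a median of 11182 UMIs and the others 648, and 98.3% of the pairs of copies that could be classed fell in the same class. Each shared barcode was therefore kept only in the library where it was deepest, which left 4343 cells after filtering, 4098 of them classed, and the results that rest on this choice are also given with all copies kept and with shared barcodes left out. The libraries held 1324, 1420 and 1599 of these cells (vehicle replicate 2, niacin replicates 1 and 2), from totals of 8301228, 9373321 and 10359526 UMIs. The median mitochondrial share of the barcodes was 8.85% in the vehicle library and 3.08% and 3.29% in the niacin libraries.

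Of the 10 classes that could be compared, each had 2 to 6 of its own markers among its 10 leading genes. No marker of another class was among them. Since cells were classed by these markers, this does not test the class names. Microglia made up 435, 863 and 996 cells in the 3 libraries, and T cells 205, 134 and 146. Monocytes and macrophages (monocyte/macrophage) numbered 279 in the vehicle library but only 10 and 25 in the niacin libraries, so values of this class in niacin-treated mice rest on few cells. With all copies of shared barcodes kept the 2 niacin libraries held 106 and 105 cells of this class, and with shared barcodes left out 3 and 10. A library's level of a gene in a class is given as CPM, its UMIs per 1000000 UMIs of that class, with exact Poisson intervals where shown, which cover counting error only. Where nothing else is said, means are over the 3 libraries with SD.

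The 10 genes lie on 8 chromosomes of GRCm38 by the GENCODE vM21 annotation. *Hcar2* is a single exon at chr5:123863570-123865499 on the minus strand, 11237 bases from its paralog *Hcar1*, and no other gene overlaps it. *Bst1* (chr5:43818885-43843986) and *Cd38* (chr5:43868553-43912375) are neighboring paralogs on the plus strand of the same chromosome, 24567 bases apart. *Nampt* spans chr12:32819545-32853349 on the plus strand with up to 11 exons, and *Parp1* spans chr1:180568924-180601254 on the plus strand with up to 23 exons. On their own strand, *Naprt* overlaps *Eef1d*, *Nampt* overlaps *Gdap10*, *Cd38* overlaps *Gm16014* and *Nmnat3* overlaps *Gm28530*, so reads from the shared stretches could not be assigned with certainty.

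RefSeq promoters (GRCm38.p6, 250 bases before to 50 bases after the RefSeq start) were found for 7 of the 10 genes. Those of 3 genes are shown, chosen after the levels were seen, namely *Nampt*, which was lower in the niacin libraries, *Cd38*, which had no UMI in 3 classes, and *Parp1*, which was detected in all 10 classes. Capitals mark matches on either strand to the GC box GGGCGG, which reads CCGCCC on the opposite strand, and to the E-box CACGTG, the motifs found in these windows among 4 searched. The other motifs were the TATA box TATAAA and the CCAAT box CCAAT. The *Nampt* and *Cd38* windows lie wholly inside the GENCODE spans given above, so they do not hold the sequence before the GENCODE starts.
Nampt, chr12:32820085-32820384, plus strand: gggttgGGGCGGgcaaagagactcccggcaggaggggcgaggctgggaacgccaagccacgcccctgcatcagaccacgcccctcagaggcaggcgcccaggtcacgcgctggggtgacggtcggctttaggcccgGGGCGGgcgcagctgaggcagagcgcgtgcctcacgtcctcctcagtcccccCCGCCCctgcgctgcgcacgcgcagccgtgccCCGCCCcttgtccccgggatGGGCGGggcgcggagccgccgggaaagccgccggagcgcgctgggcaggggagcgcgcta
Cd38, chr5:43868559-43868858, plus strand: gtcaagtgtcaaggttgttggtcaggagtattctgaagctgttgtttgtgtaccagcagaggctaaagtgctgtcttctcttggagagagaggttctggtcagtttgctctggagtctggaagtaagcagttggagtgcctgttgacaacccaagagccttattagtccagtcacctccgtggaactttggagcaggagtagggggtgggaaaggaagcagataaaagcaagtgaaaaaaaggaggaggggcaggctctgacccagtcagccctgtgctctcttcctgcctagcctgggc
Parp1, chr1:180568641-180568940, plus strand: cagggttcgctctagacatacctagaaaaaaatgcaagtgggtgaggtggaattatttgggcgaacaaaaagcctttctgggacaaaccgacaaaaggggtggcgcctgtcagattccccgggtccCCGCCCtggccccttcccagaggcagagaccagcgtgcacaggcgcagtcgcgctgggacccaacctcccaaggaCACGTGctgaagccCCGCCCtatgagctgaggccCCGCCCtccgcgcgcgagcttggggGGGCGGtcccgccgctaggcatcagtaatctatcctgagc
The *Nampt* window held 5 GC boxes and 36 CpG dinucleotides, and the *Parp1* window held 4 GC boxes, 1 E-box and 20 CpG dinucleotides. The *Cd38* window matched none of the 4 motifs and held 1 CpG, against a median of 7 over 32851 promoters. Of all promoters in the table, 35.7% held GGGCGG, 7.15% CACGTG, 13.6% TATAAA and 37.4% CCAAT on either strand.

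**Figure D1:**
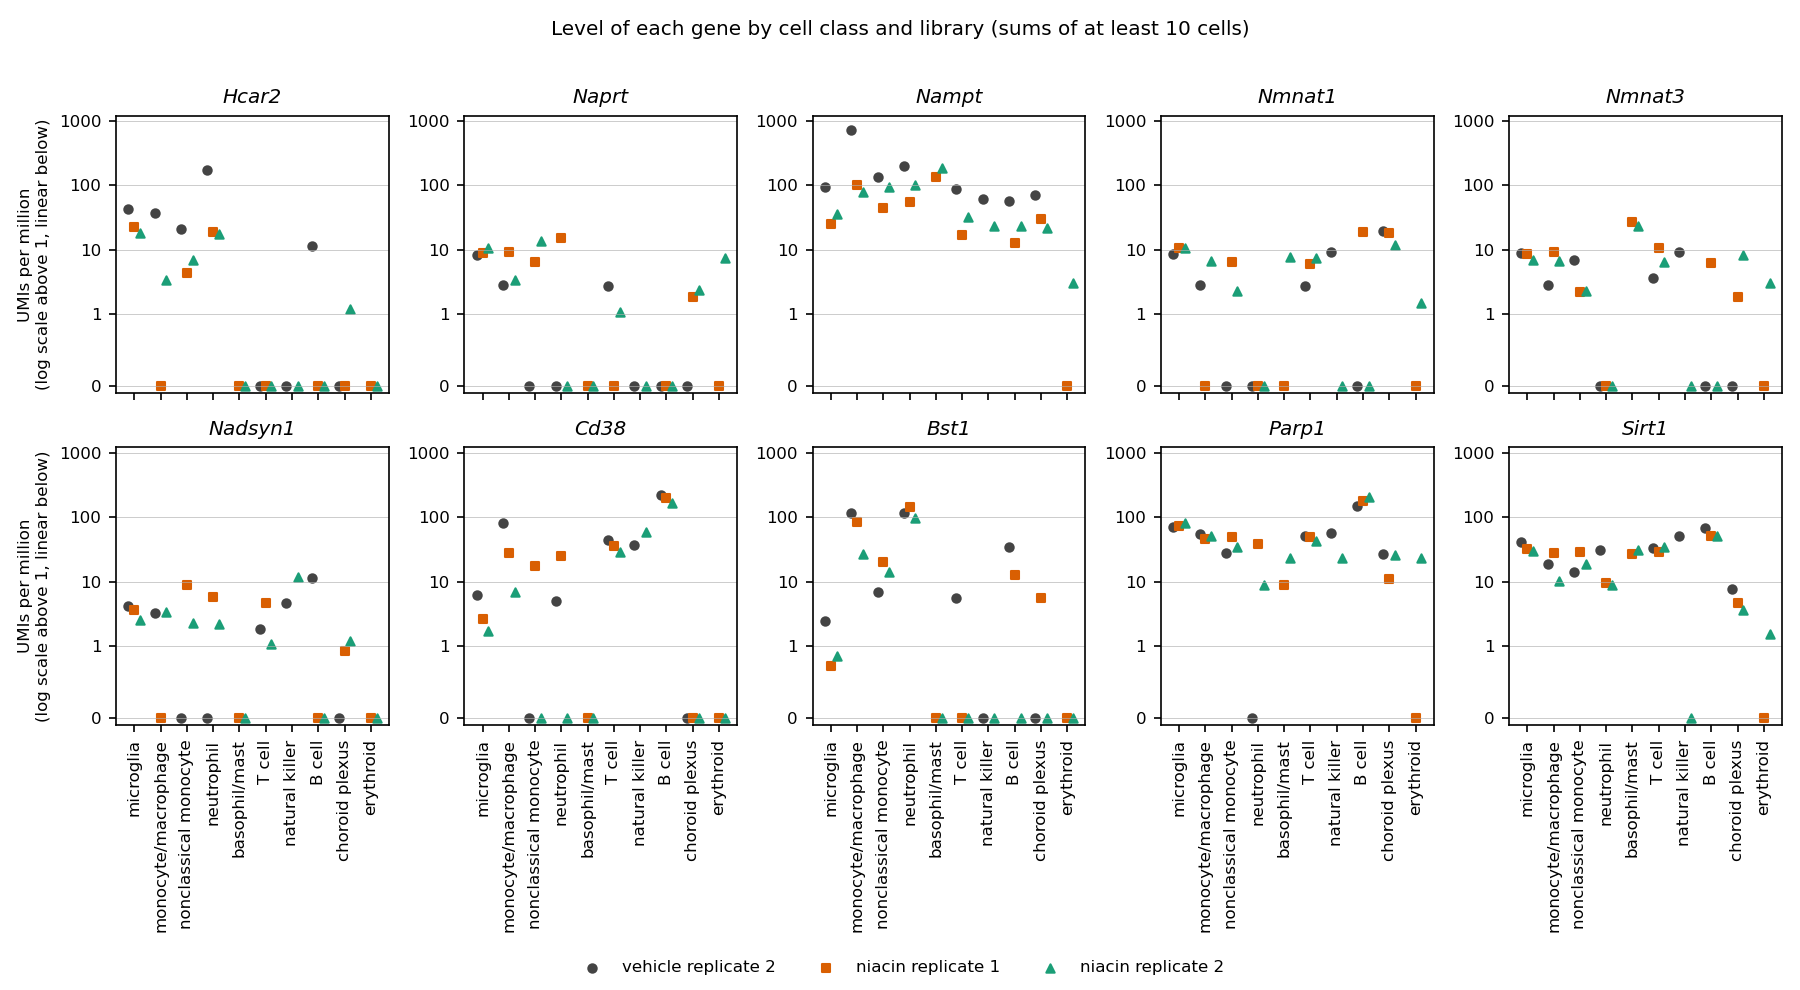
CPM (vertical axis, log scale above 1 and linear below) of the 10 genes in 10 cell classes (horizontal axis), with 1 point for each library that had at least 10 cells of the class. *Hcar2* and *Bst1* points lie mostly in the myeloid classes, *Cd38* is highest in B cells, and *Parp1* lies between 70.1 and 79.8 in microglia of all 3 libraries.

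The niacin receptor gene *Hcar2* was found in myeloid cells. In microglia it was at 42.9 CPM in vehicle replicate 2, 22.7 in niacin replicate 1 and 18.5 in niacin replicate 2. In neutrophils it was at 172 CPM in the vehicle library and 19.1 and 17.4 in the niacin libraries. In monocytes and macrophages the vehicle library had 37.0 CPM, and the niacin libraries had 0 and 3.39. The vehicle library was thus the highest in each of these classes. T cells had no *Hcar2* UMI in any library, among 2657782 UMIs in all, so that microglia, by their UMIs pooled over libraries, were at least 22.4-fold higher and neutrophils at least 39.0-fold higher than the level that 3 UMIs in the T cells would give. Without the vehicle library, which held 34 of the 52 neutrophil UMIs, these bounds were 10.8-fold and 9.63-fold. Natural killer cells, basophils and mast cells, and erythroid cells had none either, among fewer UMIs. Neutrophils pooled over all libraries were at least 4.38-fold, 3.52-fold and 19.3-fold higher than the level of 3 UMIs in these classes. Basophils and mast cells and erythroid cells were compared in the niacin libraries only.

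Against the mean of the other classes, *Hcar2* was higher in microglia (edgeR quasi-likelihood test, adjusted p = 5.17e-08), in neutrophils (adjusted p = 2.70e-10 by the same edgeR test) and in monocytes and macrophages (edgeR, adjusted p = 0.000804). Fitted folds are not given for genes with 0 UMIs in some classes, since they then depend on the prior count. It was the 1 member of 7 tested that was higher in microglia, where 43.5% of all 10019 genes tested passed. The order of the levels by library means was neutrophil (69.5 ± 88.7 CPM), microglia (28.0 ± 13.1), monocyte/macrophage (13.4 ± 20.4) and nonclassical monocyte (10.8 ± 8.90). The library ranges of each pair of neighbors in this order overlapped, and microglia did not differ from monocytes and macrophages by the test (log2 difference 0.80 ± 0.45 (SE), edgeR adjusted p = 0.167). With DESeq2 the call in monocytes and macrophages was lost (adjusted p = 0.103).

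A few cells carried much of the *Hcar2* signal. In vehicle microglia its 104 UMIs came from 41 of 435 cells, and the 5 cells with most held 41.3% of them. The niacin libraries had 95 UMIs from 65 of 863 microglia and 86 UMIs from 50 of 996. In vehicle neutrophils 34 UMIs came from 15 of 66 cells. When every cell was thinned to 1000 UMIs, 2.36% of vehicle microglia (95% exact binomial interval 1.08 to 4.42) and 1.36% and 0.911% of niacin microglia had an *Hcar2* UMI, and 0 of 193, 128 and 143 T cells did. Thinning left out 53, 55 and 118 microglia that were shallower, and before it the microglial shares were 9.43%, 7.53% and 5.02%. Median depths were 4409, 4783 and 4609 UMIs in microglia and 5217, 4913 and 6348 in T cells. Neutrophils had median depths of 2262, 4955 and 8755 UMIs, with the vehicle library the shallowest.

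The enzymes that turn niacin into NAD were sparse. *Naprt*, the first enzyme of the Preiss-Handler route, had 146 UMIs in all, of which 106 were in microglia. It was at 8.25, 8.83 and 10.5 CPM in microglia of vehicle replicate 2 and niacin replicates 1 and 2. Neither niacin library was below the vehicle library, and no *Naprt* UMI was found in B cells, natural killer cells or basophils and mast cells. *Nadsyn1*, the last enzyme of the route, had 66 UMIs, 37 of them in microglia at 4.13, 3.58 and 2.58 CPM. For classes with under 3 UMIs of such a gene, absence could not be told from low expression at this depth.

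The NMNAT genes differed in where they were found. *Nmnat1*, which encodes the nuclear enzyme, was at 19.4, 18.5 and 11.9 CPM in choroid plexus cells of the 3 libraries and at 8.66, 10.7 and 10.5 in microglia. The choroid plexus values lay above the microglial values in every library. *Nmnat3*, which encodes the mitochondrial enzyme, was at 26.8 and 23.5 CPM in basophils and mast cells of the niacin libraries, from 6 UMIs in all, and at 9.08, 8.59 and 6.87 in microglia. Neither gene had a UMI in neutrophils of any library, among 1180622 UMIs.

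*Naprt*, *Nmnat1* and *Nadsyn1* were too low for the fit across classes, which tested 7 of the 10 genes. When every gene with a UMI was tested, *Nmnat1* was higher in choroid plexus cells (edgeR, adjusted p = 4.54e-06) and *Naprt* in microglia (edgeR, adjusted p = 0.00795) and erythroid cells (edgeR, adjusted p = 0.0065). The erythroid call rests on 5 *Naprt* UMIs, all in niacin replicate 2, and *Nmnat1* was lower in neutrophils (edgeR, adjusted p = 0.0478). *Nmnat3* was lower in neutrophils in the filtered fit (edgeR, adjusted p = 0.0476), a call lost in 4 of 7 alternatives.

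*Nampt*, which encodes the rate-limiting enzyme of nicotinamide salvage, was the most abundant of the 10 genes, with 2673 UMIs. In monocytes and macrophages it was at 731 CPM in vehicle replicate 2, 101 in niacin replicate 1 and 77.9 in niacin replicate 2. In neutrophils the values were 202, 55.3 and 102 CPM in the same order, and in microglia 93.2, 25.3 and 35.6. The vehicle library stood above both niacin libraries in each of these. Basophils and mast cells, compared in the niacin libraries only, had 134 and 188 CPM, the highest levels of any class there.

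In the fit across classes, *Nampt* was higher in monocytes and macrophages (log2 fold change 2.09 ± 0.29, edgeR adjusted p = 8.02e-07), in basophils and mast cells (2.13 ± 0.44, edgeR adjusted p = 0.000729) and in neutrophils (1.55 ± 0.31, edgeR adjusted p = 0.000158). Monocytes and macrophages had 4 of 7 tested members higher, where 20.3% of all genes passed. In basophils and mast cells 1 of 7 was higher (8.48% of all genes passed), and in neutrophils 3 were higher and 1 lower (25.5%). The *Nampt* excess in monocytes and macrophages rested on the vehicle library, without which it was 0.78 on the log2 scale (edgeR, adjusted p = 0.183). Without the library block the calls in neutrophils (adjusted p = 0.0613) and in basophils and mast cells (adjusted p = 0.303, both edgeR) were lost. By library means the order was monocyte/macrophage (303 ± 371 CPM), basophil/mast (161 ± 38.6, n = 2), neutrophil (120 ± 75.0), nonclassical monocyte (90.4 ± 44.5), microglia (51.4 ± 36.6), T cell (45.4 ± 36.9), natural killer (42.2 ± 26.4, n = 2), choroid plexus (40.3 ± 26.0), B cell (30.9 ± 23.2) and erythroid (1.52 ± 2.15, n = 2). The library ranges of neighbors overlapped down to B cells, and erythroid cells lay below all others.

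The NAD-consuming ectoenzymes had separate patterns. *Cd38*, whose product is also a surface marker of lymphocytes, was at 216, 195 and 167 CPM in B cells of the 3 libraries. T cells had 43.5, 35.3 and 29.2 CPM, and natural killer cells 37.5 and 58.8 in the libraries with at least 10 of them. Monocytes and macrophages had 80.9 CPM in the vehicle library and 27.7 and 6.77 in the niacin libraries. B cells were the highest class in each library, with no overlap with any other class.

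*Cd38* was higher in B cells (edgeR, adjusted p = 2.82e-05), where 3 of 7 tested members were higher against 12.7% of all genes called. It was also higher in T cells (edgeR, adjusted p = 0.0237), where it was the 1 member called and 23.2% of all genes passed, and in monocytes and macrophages (edgeR, adjusted p = 0.00991). The T cell call was lost with the stricter cell filter (adjusted p = 0.068), and the monocyte/macrophage call without the vehicle library (adjusted p = 0.363, both edgeR). Choroid plexus cells had no *Cd38* UMI among 2177910, so B cells were at least 135-fold higher than the level of 3 UMIs in that class.

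*Bst1*, the neighboring paralog, was highest in neutrophils, with 116, 143 and 98.1 CPM in the 3 libraries. Monocytes and macrophages had 114, 83.0 and 27.1 CPM. Microglia had 2.48, 0.716 and 0.858 CPM in the 3 libraries, from 13 UMIs in all. *Bst1* was higher in neutrophils (edgeR, adjusted p = 1.16e-09) and in monocytes and macrophages (edgeR, adjusted p = 5.35e-06), and both calls held in all 11 alternatives. The lowest neutrophil value lay below the vehicle value of monocytes and macrophages, so the ranges of these 2 classes overlapped.

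*Parp1* was at 148, 176 and 204 CPM in B cells and at 70.1, 71.6 and 79.8 in microglia. Monocytes and macrophages had 53.8, 46.1 and 50.8 CPM, and T cells 50.9, 49.1 and 42.1. B cells lay above every other class in every library, and microglia came next among the classes seen in all 3. *Parp1* was higher in B cells by 2.00 ± 0.34 on the log2 scale (edgeR, adjusted p = 4.47e-05), a call that held in all 11 alternatives. In neutrophils of niacin replicate 1 all 20 *Parp1* UMIs came from 1 cell of 80812 UMIs.

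*Sirt1*, a nuclear NAD-dependent deacetylase, was at 68.3, 50.4 and 51.0 CPM in B cells. Microglia had 41.7, 32.4 and 29.8 CPM, and choroid plexus cells 7.77, 4.63 and 3.57. It was higher in B cells (log2 fold change 1.41 ± 0.40, edgeR adjusted p = 0.013), a call lost when either niacin library was left out (largest adjusted p = 0.0898). In choroid plexus cells it was lower by 1.71 on the log2 scale (SE 0.51, edgeR adjusted p = 0.00438), the 1 member called there, where 47.5% of all genes passed. No member passed in nonclassical monocytes (edgeR), where 21.1% of all genes did, in natural killer cells (9.94%) or in erythroid cells (10.5%).

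In all, 15 of 70 pairs of a tested member and a class were called, 13 higher and 2 lower, and 25 had an unadjusted p under 0.05. That share lies within the 8.48% to 47.5% of all genes called in the single classes. The median log2 difference of the 7 tested members was 2.09 in monocytes and macrophages against 0.35 over all genes, 1.55 against 0.08 in neutrophils, 1.41 against 0.14 in B cells and 0.54 against 0.46 in microglia.

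Microglia and the infiltrating monocytes and macrophages, the myeloid cells on which the study centers, were then compared directly in the same fit. Of the 7 members tested, 3 were lower and 1 higher in microglia, where 35.8% of all genes passed. *Bst1* was lower in microglia by 5.89 on the log2 scale (SE 0.59, edgeR adjusted p = 4.47e-08), *Cd38* by 3.96 (SE 0.65, edgeR adjusted p = 0.000155) and *Nampt* by 2.49 (SE 0.36, edgeR adjusted p = 1.01e-06). These 3 calls held in all 11 alternatives. *Sirt1* was higher in microglia by 0.94 ± 0.37 (edgeR, adjusted p = 0.0401), a call lost in 8 of 10 alternatives, and *Parp1* differed by 0.35 ± 0.39 (edgeR, adjusted p = 0.518).

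The series was made to compare niacin with vehicle. It was fitted in 6 classes, those that each library held 20 or more cells of, and not in monocytes and macrophages unless all copies of shared barcodes were kept. With 1 vehicle library there was 1 residual degree of freedom, and the lone vehicle library was assumed to vary like the niacin libraries, which holds for each p below. In all, 4 of 27 tested pairs were called, all lower with niacin, and 8 had an unadjusted p under 0.05.

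In microglia 2 of 9 tested members fell, *Nampt* and *Hcar2*, against 27.4% of all 11541 genes called, so the share of members was near that of all genes. *Nampt* fell by 1.53 on the log2 scale (SE 0.16, edgeR adjusted p = 6.37e-12 with 1 vehicle library). It remained called in all 7 alternatives, with log2 fold changes from -1.55 to -1.32, and with shared barcodes left out its levels were 76.1, 22.3 and 32.8 CPM in vehicle replicate 2 and niacin replicates 1 and 2. *Nampt* UMIs were spread over 115 of 435 vehicle microglia, and 16.8% were in the top 5 cells.

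*Hcar2* fell in microglia by 0.99 on the log2 scale (SE 0.20, edgeR adjusted p = 3.70e-05 with 1 vehicle library). That call was lost when shared barcodes were left out, with levels of 20.6, 20.6 and 14.3 CPM and a log2 fold change of -0.19 (edgeR, adjusted p = 0.732), and with DESeq2 (adjusted p = 0.357). The 56 vehicle microglia with shared barcodes held 69 of the 104 *Hcar2* UMIs. These cells had a median of 12225 UMIs against 4409 in all vehicle microglia.

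In T cells *Nampt* was at 87.0, 16.9 and 32.4 CPM in vehicle replicate 2 and niacin replicates 1 and 2. It fell by 1.57 on the log2 scale (SE 0.32, edgeR adjusted p = 5.92e-05 with 1 vehicle library) and was the 1 of 4 tested members called, where 14.6% of all genes passed. With shared barcodes left out the log2 fold change was -1.11 (edgeR, adjusted p = 0.273), and DESeq2 gave no adjusted p. The sum of monocyte/macrophage markers in these T cells, given below, would correspond to more *Nampt* in the vehicle library than was found. Most of that sum was *Ly6c2* and *Ccr2*, which T cells can also express, so it is not specific to monocyte RNA there. In neutrophils *Hcar2* was the 1 of 5 tested members called, lower by 2.57 on the log2 scale (SE 0.53, edgeR adjusted p = 0.0112 with 1 vehicle library), where 2.84% of all genes passed. That call was lost in 5 of 7 alternatives, with adjusted p-values up to 0.695 (DESeq2).

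No member passed in B cells (edgeR, 6.22% of all genes did), choroid plexus cells (8.63%) or nonclassical monocytes (4.42%). Only 3 members were tested in each of these 3 classes, and in B cells *Nampt* was not among them. In the order vehicle replicate 2, niacin replicate 1 and niacin replicate 2, *Nampt* had 56.9, 12.6 and 23.2 CPM in B cells. It had 69.9, 29.6 and 21.4 CPM in choroid plexus cells and 133, 43.9 and 94.8 in nonclassical monocytes. The B cell levels rest on 12 *Nampt* UMIs in all. In CPM, *Nampt* was thus lower in both niacin libraries than in the vehicle library in all 7 classes that each library held 10 or more cells of, and in every such class under each of the 5 alternatives for choosing cells. In neutrophils the fitted difference, which scales the libraries by TMM, was -0.68 ± 0.49 on the log2 scale (edgeR, adjusted p = 0.57 with 1 vehicle library) and turned to 0.17 with shared barcodes left out. With all copies of shared barcodes kept, *Nampt* in monocytes and macrophages was at 729, 399 and 174 CPM. That class could then be fitted, with a log2 fold change of -1.30 with 1 vehicle library. The niacin libraries held 106 and 105 cells of this class in that setting, against 10 and 25 with each shared barcode kept once. Most of these niacin cells were thus copies of barcodes not deepest there, so this fit does not add independent niacin cells.

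**Figure D2:**
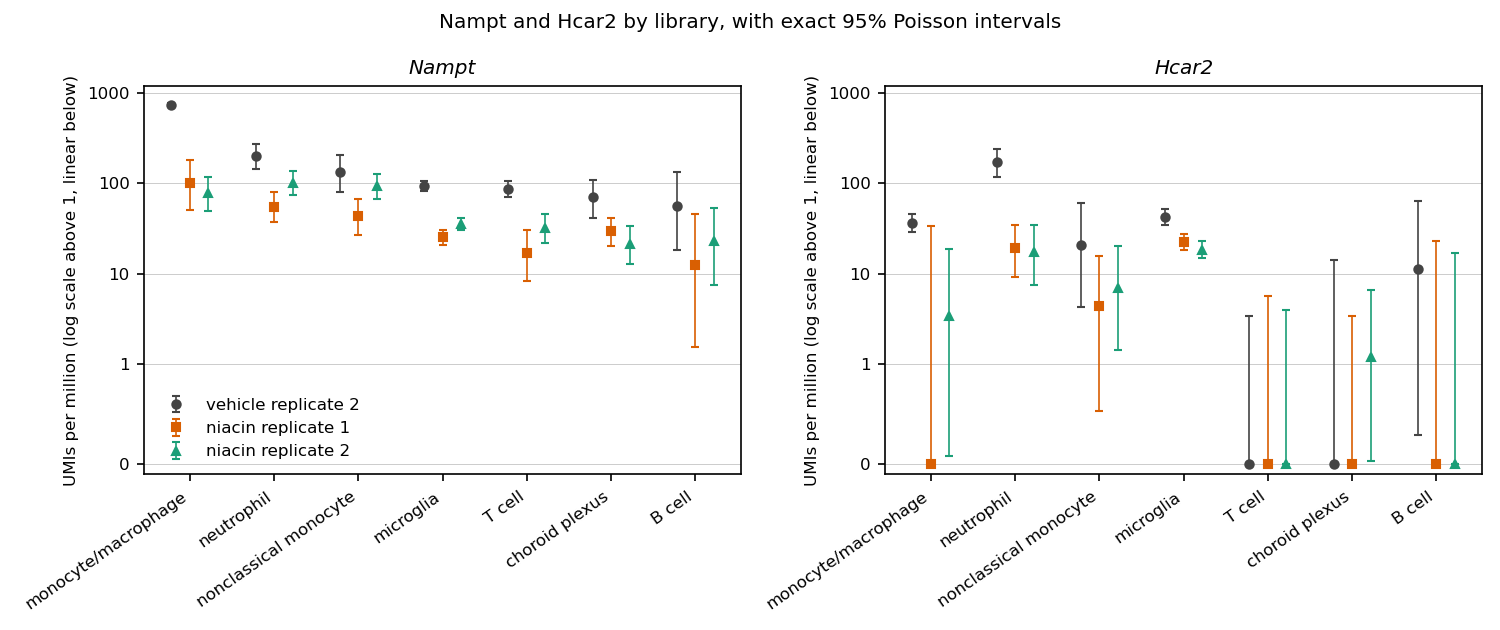
*Nampt* (left) and *Hcar2* (right) in CPM (vertical axis, log scale above 1 and linear below) in the 7 classes that each library held 10 or more cells of, with bars for exact 95% Poisson intervals, which cover counting error only. The vehicle point is the highest of the 3 for *Nampt* in every class, and *Hcar2* points of T cells lie at 0.

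To gauge monocyte and macrophage RNA in other classes, the 8 monocyte/macrophage markers were summed there, though T cells can express some of them. In microglia the markers summed to 206 CPM in the vehicle library, with all 8 detected, and to 22.2 and 29.6 CPM in the niacin libraries, with 1 and 2 of the 8 at 0. The vehicle value was 3.17% of the level in the class itself, and that percentage of its *Nampt* level is 23.2 CPM, beside the 93.2 CPM measured in vehicle microglia. The niacin libraries gave 0.464 and 0.439 CPM in the same way, beside 25.3 and 35.6 measured. In T cells the markers summed to 1034, 872 and 918 CPM, and their percentages correspond to 116, 18.2 and 13.6 CPM of *Nampt*, beside 87.0, 16.9 and 32.4 measured. The measured level minus this amount is -29.4, -1.38 and 18.8 CPM, with the vehicle library the lowest. *Ly6c2* and *Ccr2*, which T cells can also express, made up 88.6%, 96.7% and 95.3% of the marker sum in T cells against 49.6% in vehicle monocytes and macrophages, and *Fn1* was at 10.2, 0 and 2.16 CPM in T cells against 967 there. In neutrophils the markers summed to 864, 683 and 1027 CPM, mostly *Ly6c2* (69.0%, 96.6% and 99.8%), which correspond to 97.3, 14.3 and 15.2 CPM of *Nampt* beside 202, 55.3 and 102 measured. In nonclassical monocytes they correspond to 56.5, 9.18 and 5.69 CPM beside 133, 43.9 and 94.8. The vehicle library minus this amount (76.0) lay below niacin replicate 2 (89.2). That order rests on the marker sum, of which *Ccr2* and *Ms4a4c* made up 251 and 146 of 502 CPM in the vehicle library. *Fn1* was at 20.9 CPM there against 967 in vehicle monocytes and macrophages. The markers thus shared no common percentage, and the sum is only a rough gauge in this class. In B cells and choroid plexus cells the vehicle library stayed the highest after the same subtraction, with 31.3, 8.39 and 20.3 CPM and 59.0, 29.4 and 21.3 CPM. The sum in B cells was mostly *Ms4a4c*, at 148, 139 and 195 of 228, 202 and 195 CPM, so it is not specific to monocyte RNA there. The mitochondrial share also differed between the libraries, as given above. Its part in the *Nampt* result was not tested, and neither was that of monocyte and macrophage RNA.

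The other members were not called. On simulated counts the edgeR test of niacin against vehicle found 82% of 4-fold and 7% of 2-fold changes in microglia. In T cells it found 80% and 10%. An uncalled member is therefore not shown to be unchanged. Over both niacin libraries pooled, *Parp1* in microglia differed from the vehicle library by 0.11 on the log2 scale (95% counting interval -0.13 to 0.37), *Naprt* by 0.24 (-0.48 to 1.02) and *Nmnat1* by 0.29 (-0.40 to 1.05). *Sirt1* in microglia differed by -0.42 (-0.76 to -0.08) and *Cd38* by -1.53 (-2.58 to -0.45), and the fit called neither (edgeR, adjusted p = 0.148 and 0.0858 with 1 vehicle library). The *Cd38* ratio in microglia was 0.79 with shared barcodes left out. *Cd38* in B cells differed by -0.27 (-1.03 to 0.54) and *Bst1* in neutrophils by 0.07 (-0.58 to 0.78). In the fit, whose TMM scaling differs from CPM, these were 0.10 ± 0.36 and 0.69 ± 0.44 (edgeR, adjusted p = 0.904 and 0.505 with 1 vehicle library). In monocytes and macrophages, which had too few cells for the fit with each shared barcode kept once, the difference was -3.12 for *Nampt* (-3.65 to -2.63), -0.12 for *Parp1* (-0.88 to 0.57) and -1.44 for *Bst1* (-2.24 to -0.73), with 1563, 115 and 244 UMIs in the vehicle library and 34, 20 and 17 in the niacin libraries.

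**Figure D3:**
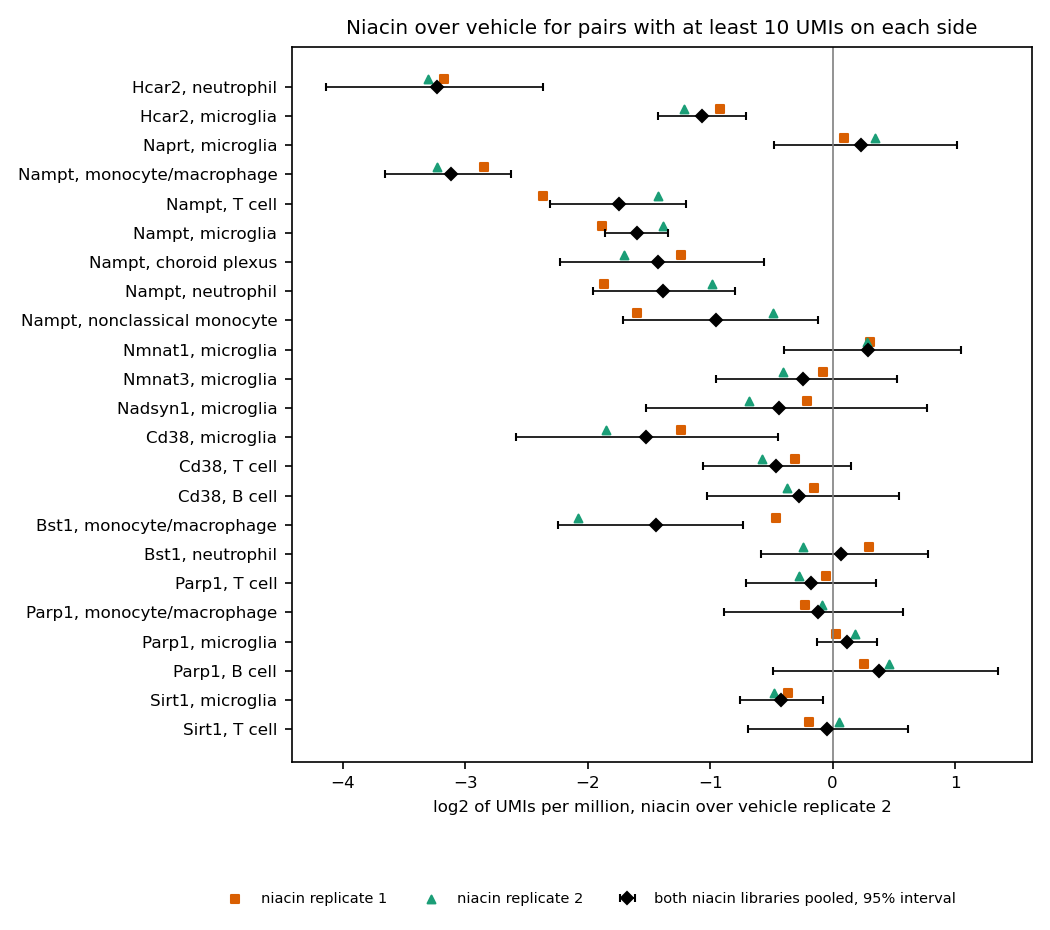
Log2 ratio of CPM, niacin over vehicle replicate 2 (horizontal axis), for the pairs of gene and class (vertical axis) with at least 10 UMIs on each side; diamonds with bars are both niacin libraries pooled with 95% counting intervals, and squares and triangles the single niacin libraries. All *Nampt* diamonds lie between -3.12 and -0.95, and the *Parp1* diamonds between -0.18 and 0.38.

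Whether the niacin effect differed between a class and microglia was tested with an interaction term. None of 30 tested pairs was called by edgeR. DESeq2 gave an adjusted p for 7 of them, none of which was called, and left 23 undefined. On simulated counts the edgeR interaction test for T cells found 17% of 4-fold and 1% of 2-fold differences. An absent call therefore does not show that classes responded alike. Of the 30, 2 had an unadjusted p under 0.05 in edgeR, beside 0.248% (B cells), 0.428% (choroid plexus), 1.7% (neutrophils), 0.372% (nonclassical monocytes) and 0.552% (T cells) of all genes called. The *Nampt* effect in T cells differed from that in microglia by -0.17 ± 0.46 on the log2 scale (edgeR, adjusted p = 1). The *Hcar2* effect in neutrophils differed by -1.59 ± 0.62 (edgeR, adjusted p = 0.254), the other pair with a low unadjusted p being *Parp1* in neutrophils, whose UMIs came mainly from 1 cell.

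**Figure D4:**
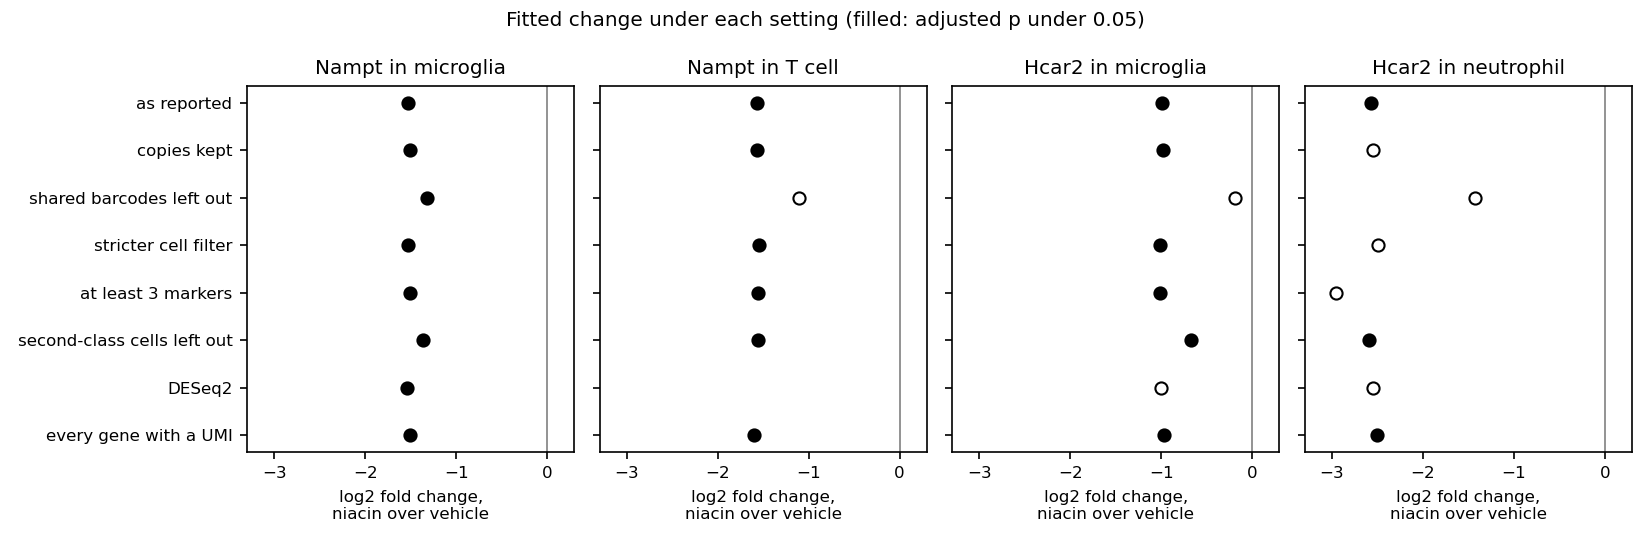
Fitted log2 fold change, niacin over vehicle (horizontal axis), of the 4 called pairs under each setting (vertical axis), filled where the adjusted p was under 0.05; "copies kept" means shared barcodes kept in every library, and DESeq2 gave no adjusted p for *Nampt* in T cells, so no point is drawn. *Nampt* in microglia is filled in every row, and *Hcar2* in microglia moves from -0.99 to -0.19 with shared barcodes left out.

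A list of 51 other genes of NAD synthesis, transport, niacin signaling and NAD use was read from the same fits. Between microglia and monocytes and macrophages 32 could be tested, and 2 were higher and 8 lower in microglia, a smaller share than the 35.8% of all genes that passed, with a median of -0.43 on the log2 scale against 0.16 over all genes. The lower genes included *Nadk*, which phosphorylates NAD to NADP (-1.92 ± 0.29, edgeR adjusted p = 9.76e-07), and *Parp14*, *Parp12* and *Tiparp* (-1.15, -0.93 and -1.01). *Arrb2*, a β-arrestin that couples to receptors such as HCAR2, was higher in microglia by 1.39 ± 0.33 (edgeR, adjusted p = 0.000695). *Nadk2* was higher there by 1.17 ± 0.45 (edgeR, adjusted p = 0.036). Among the 11 alternatives *Nadk2* was called only with DESeq2, with all copies of shared barcodes kept and without niacin replicate 2. Without the vehicle library 1 gene was higher and 2 were lower, *Nadk* and *Arrb2* among them, and with DESeq2 5 were higher and 3 lower. The calls of *Parp14*, *Parp12* and *Tiparp* were lost in both (edgeR without the vehicle library, adjusted p = 0.0624, 0.719 and 0.351; DESeq2, adjusted p = 0.0955, 0.361 and 0.121), and each in 3 of 11 alternatives.

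With niacin, 37 genes of the list were tested in microglia, and 1 was higher and 7 lower, a smaller share than the 27.4% of all genes that passed, with a median of -0.13 against 0.01 over all genes. Of the lower genes, 6 belonged to the PARP family and NADases, of which all 15 were tested. *Parp14*, an interferon-inducible mono-ADP-ribosyltransferase, was at 151, 77.3 and 73.8 CPM in microglia of vehicle replicate 2 and niacin replicates 1 and 2, and at 263, 73.6 and 123 in T cells. It fell by 0.92 in microglia, 1.20 in T cells, 2.54 in neutrophils and 0.99 in nonclassical monocytes on the log2 scale (edgeR, adjusted p = 5.55e-11, 1.27e-05, 0.00864 and 0.0496, each with 1 vehicle library). *Parp9*, *Parp12*, *Tiparp* and *Tnks2* also fell in microglia (by 0.88, 0.67, 0.51 and 0.36). With shared barcodes left out, 1 gene of the list was higher and 3 lower in microglia, *Parp14* among the latter at -0.54 (edgeR, adjusted p = 0.0141), and with DESeq2 *Parp14* alone was called (adjusted p = 0.0198). In T cells *Parp14* was not called with shared barcodes left out (edgeR, adjusted p = 0.25) or with DESeq2 (adjusted p = 0.0776). In neutrophils its call was lost in 5 of 7 alternatives (largest adjusted p = 0.643, DESeq2), and in nonclassical monocytes in 3 of 6 (largest adjusted p = 0.682, edgeR), where DESeq2 gave no adjusted p.

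*Pnp*, which releases nicotinamide from its riboside, rose in microglia from 209 CPM to 293 and 300 (log2 fold change 0.58 ± 0.11, edgeR adjusted p = 7.04e-06 with 1 vehicle library). In T cells 5 of 29 tested genes of the list fell and none rose, where 14.6% of all genes passed, among them *Nt5e*, which encodes the ecto-nucleotidase CD73 and was at 128, 46.0 and 50.8 CPM (-1.21 ± 0.27, edgeR adjusted p = 0.000325 with 1 vehicle library). No gene of the list was called in T cells with shared barcodes left out (edgeR), and none of the 7 for which DESeq2 gave an adjusted p, with 22 left undefined. Choroid plexus cells, neutrophils and nonclassical monocytes each had 1 gene of the list lower, and B cells had none (edgeR).

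The genes whose levels varied most like each member across the 27 sums of class and library were read as a description, among 10724 genes with at least 100 UMIs. The sums of 1 library share their pool and depth. *Hcar2* was most like *Trpm2* (Pearson r = 0.88), *Csf3r* (0.87) and *Aatk* (0.87), and *Bst1* was most like *Pira2* (0.94), *Ccr1* (0.93) and *Cxcl2* (0.93). *Nampt* was most like *Nceh1*, *Soat1* and *Cdkn1a* (all 0.82) and *Cd38* most like *B3gnt5* (0.88), *Cnp* (0.84) and *4930523C07Rik* (0.81). *Parp1* was most like *Actl6a* (0.85) and *Nufip1* (0.83) among those reported, and *Sirt1* to *Clk4* (0.89), *Brf1* (0.88) and *Chd2* (0.88). Among the sparse genes *Nmnat1* was nearest to *Nprl3* (0.88), *Nmnat3* to *Plpp5* (0.83) and *Naprt* to *Ticam2* (0.70). No member was among the 3 genes nearest to another.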

How the data were processed

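Droplet single-cell RNA-seq (10x Genomics 3′ v3.1) of live cells was analyzed in 3 libraries, 1 vehicle and 2 niacin. The deposited files hold raw UMI counts per gene and barcode, which the authors made with Cell Ranger 3.1 on mm10. The labels say 4 brains were pooled per sample and give 5 control and 10 niacin mice. Cells with under 200 genes or over 20% mitochondrial UMIs were removed. No doublet caller was run, and 780 cells with at least 2 markers of a second class were kept and left out as an alternative. UMIs were summed per class and library for sums of at least 10 cells (20 for niacin against vehicle) and tested with edgeR 4.0.16 (TMM, filterByExpr, quasi-likelihood, Benjamini-Hochberg over all genes tested), with library as a block for the classes. DESeq2 1.42.0 was an alternative. All 10 members were named, list genes where called and at 50 CPM or more in a class, and the 3 most alike genes per member of at least 100 UMIs, of which 1 is not reported here. Scripts were tested on simulated data. Members and lists were chosen with earlier results of these data known. Replicates are pools, so p-values rest on spread between pools and not between mice. In the class fits this is the spread left after the library block. In the niacin fits it comes from the 2 niacin pools and is moderated across genes, and no spread between vehicle pools was measured.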

Additional observations from a re-analysis of the deposited data

Results flagged for a closer look

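The 3 results here were singled out because both niacin libraries lay above the vehicle library in a class and both below it in another. All concern *Parp1*, with at least 10 UMIs on each side. The log2 ratio of niacin over vehicle was higher in microglia than in monocytes and macrophages by 0.23, in B cells than in monocytes and macrophages by 0.50, and in B cells than in T cells by 0.56. These differences were not tested. Each class's own counting interval included 0, from -0.13 to 0.37 in microglia, -0.88 to 0.57 in monocytes and macrophages, -0.49 to 1.35 in B cells and -0.71 to 0.36 in T cells.

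In cells outside the compared classes (dendritic, plasma and unassigned) no member was higher in a niacin library than in the vehicle library with separate Poisson intervals, in 60 comparisons.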

How the results depend on the processing

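The 15 calls of class differences became 23 with all copies of shared barcodes kept and 25 with DESeq2, and 14 to 19 when 1 library was left out. Without the replicate block there were 13. The comparison of microglia with monocytes and macrophages kept 3 of its 4 calls, the same genes (*Bst1*, *Cd38* and *Nampt*), without the block and in each fit without 1 library. The 4 niacin calls fell to 1 with shared barcodes left out and to 1 with DESeq2, in each case *Nampt* in microglia, with no adjusted p from DESeq2 for *Nampt* in T cells. *Cd38* in microglia, a ratio without a call, turned from -1.53 to 0.79 on the log2 scale with shared barcodes left out and to 0.11 when 3 markers were needed. The causes were not tested. The other counts stayed within 1.5 times. No paired analysis was made for niacin against vehicle, because the labels state no pairing between pools and there was 1 vehicle library. With 1 niacin library left out, no test could be made, and the log2 ratio of *Nampt* in microglia was -1.88 or -1.39. Depth limited *Nadsyn1*, *Naprt*, *Nmnat1* and *Nmnat3* most, with 66 to 184 UMIs each.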

Other observations

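Cells that met no class, with 134 in vehicle replicate 2, 43 in niacin replicate 1 and 68 in niacin replicate 2, had *Hcar2* at 120, 113 and 22.0 CPM and *Nampt* at 209, 0 and 22.0 CPM. In these shallow cells, with median depths of 1003, 896 and 862 UMIs, *Hcar2* rested on 23, 6 and 2 UMIs. Dendritic cells, of which 16, 5 and 6 were found, had *Nampt* at 238, 0 and 35.5 CPM and *Cd38* at 95.3, 0 and 23.6 CPM. Plasma cells (8, 4 and 4) had *Parp1* at 86.7, 48.1 and 81.1 CPM.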
